A study of Mus musculus with 16 samples.

Results

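The transcripts of hemoglobin and of heme synthesis were measured in 16 RNA sequencing libraries made from the cortex of mouse fetuses at gestational day 16. They are 9 genes of 55359 gene IDs counted: the adult beta-type globins Hbb-bs and Hbb-bt, the adult alpha-type globins Hba-a1 and Hba-a2, the embryonic globins Hbb-y, Hbb-bh1 and Hba-x, and the heme enzymes Alas2 and Fech. They were picked by name, to set adult beside embryonic globins and to describe the blood content of the tissue. The libraries cover male and female fetuses of 4 parental backgrounds: no ethanol exposure (Control) and ethanol given to the father (PaternalExp), to the mother (MaternalExp) or to both (DualExp), here called control, paternal, maternal and dual. Each combination of sex and background held 2 libraries, so each background held 4. Strain, ethanol dose and litter are not stated in the labels, nor is it stated that the replicates of a group were separate fetuses or litters. The p-values below thus describe library-to-library spread alone, some of which may be technical.

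Hemoglobin is a tetramer of alpha-type and beta-type globin chains, each holding a heme group that carries oxygen. In the mouse embryo the primitive red cells of the yolk sac use the embryonic chains Hba-x (zeta), Hbb-y (epsilon-y) and Hbb-bh1 (beta-h1), and the definitive red cells that the fetal liver releases later use the adult chains. Alas2 makes the erythroid form of the enzyme that starts heme synthesis and is largely restricted to red cell precursors, whereas Fech, ferrochelatase, inserts the iron in the last step and serves all cells. Neurons and glia hold little of the classical globins, so globin RNA in whole cortex is taken here to come mainly from red cells. Whether these lay in vessels or elsewhere in the sample was not tested. In bulk RNA, fewer red cells and less RNA per red cell cannot be told apart.

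The 120 bases before the transcription start are shown for the members with a RefSeq promoter entry here, to set the adult genes, whose RNA dominated the globin counts, beside the embryonic genes that were nearly silent. The sequences are RefSeq's, build GRCm38.p6, read 5′ to 3′ on the strand of the gene. Capitals mark every match, on either strand, to the TATA-box word ATATAA, to the CCAAT box, to the CACC-box words CACACCC and, as a separate word, CCACCC, and to 4 GATA words: AGATAA, its variant TGATAA, its variant AGATAG and its variant TGATAG. Hbb-bs lies at chr7:103827929-103828048, Hbb-bt at chr7:103813924-103814043 and Hbb-y at chr7:103853208-103853327, all on the minus strand. Hba-a1 lies at chr11:32283552-32283671, Hba-a2 at chr11:32296372-32296491, Hba-x at chr11:32276480-32276599 and Alas2 at chrX:150547297-150547416, all on the plus strand.
Hbb-bs: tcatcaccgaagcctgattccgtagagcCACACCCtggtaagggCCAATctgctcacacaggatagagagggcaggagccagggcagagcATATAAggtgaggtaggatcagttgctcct
Hbb-bt: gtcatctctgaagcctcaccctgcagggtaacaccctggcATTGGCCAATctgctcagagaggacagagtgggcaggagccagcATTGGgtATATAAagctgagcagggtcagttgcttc
Hba-a1: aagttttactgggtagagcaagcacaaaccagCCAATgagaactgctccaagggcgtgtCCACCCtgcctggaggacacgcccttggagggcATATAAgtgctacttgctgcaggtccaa
Hba-a2: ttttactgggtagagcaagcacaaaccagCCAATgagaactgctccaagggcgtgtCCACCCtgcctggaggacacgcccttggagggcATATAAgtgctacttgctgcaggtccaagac
Hbb-y: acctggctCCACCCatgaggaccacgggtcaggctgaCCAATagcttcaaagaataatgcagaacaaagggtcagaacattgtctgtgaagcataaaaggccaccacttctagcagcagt
Hba-x: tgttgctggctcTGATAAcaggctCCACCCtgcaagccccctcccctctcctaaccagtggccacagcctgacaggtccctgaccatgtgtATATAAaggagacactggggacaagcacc
Alas2: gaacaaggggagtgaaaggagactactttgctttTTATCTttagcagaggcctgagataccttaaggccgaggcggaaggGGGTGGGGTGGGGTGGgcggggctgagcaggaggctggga

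The windows of Hba-a1 and Hba-a2 are copies: with a shift of 3 bases their 250-base promoters were identical at 100% of 247 bases compared, whereas Hbb-bs and Hbb-bt were identical at 51% of 249 bases. Both figures come from a shift without gaps, so an inserted or deleted base lowers them and 51% may understate the likeness. Over 250 bases before the start, ATATAA was found in 5 of 7 members, the 4 adult globins and Hba-x, and in 9.1% of 32851 mouse promoters. CCAAT was found in 5 of 7, the 4 adult globins and Hbb-y, against 33.8% of all promoters. CCACCC was found in 6 of 7 against 28.1%, and CACACCC, a longer CACC word that does not contain CCACCC, in Hbb-bs alone against 6.93%. A GATA word was found in 6 of 7 against 26.5%, and not in Hbb-bt. These are matches of letters, not sites of binding. The near-identity of the copies extends into the transcripts. Of the 50-base stretches of the Hba-a2 transcript, 86.9% also occur in Hba-a1, and 67.5% of those of Hba-a1 occur in Hba-a2. Hbb-bs shares 65.8% of its stretches with Hbb-bt. How reads that fit both copies were counted is not given in the sources used here, so the split within each pair is uncertain. The embryonic globins share 0 such stretches with any other member.

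Summed counts ran from 15336566 to 19966696 in male and from 26134287 to 35218456 in female libraries, so sex and depth cannot be told apart. All 16 libraries held the sex genes their labels call for. The 10 cortical neuron markers checked summed to between 5864 and 6912 CPM (counts scaled to library size) in every library. Between 1.73% and 17.8% of counts fell on IDs that have no symbol, with the highest shares in male dual replicate 2 and, at 14.2%, male paternal replicate 1. Gene models of the TEC and sense-intronic classes took 0.872% and 0.86% of counts in the female dual libraries and 0.28% to 0.534% in the other 14.

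Adult globins made up nearly all of the globin RNA. Per kilobase of transcript, Hbb-bs had a mean of 622 CPM, Hba-a1 191, Hbb-bt 109 and Hba-a2 66.3 over the 16 libraries. Alas2 stood at 8.02 CPM per kilobase, Fech at 4.38, Hbb-y at 2.05, Hba-x at 1.23 and Hbb-bh1 at 0.0416. Hbb-bs was thus 142 times as abundant as Fech on this scale. Together the 4 adult globins took 0.0377% to 0.114% of all counts in a library.

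**Figure D1:**
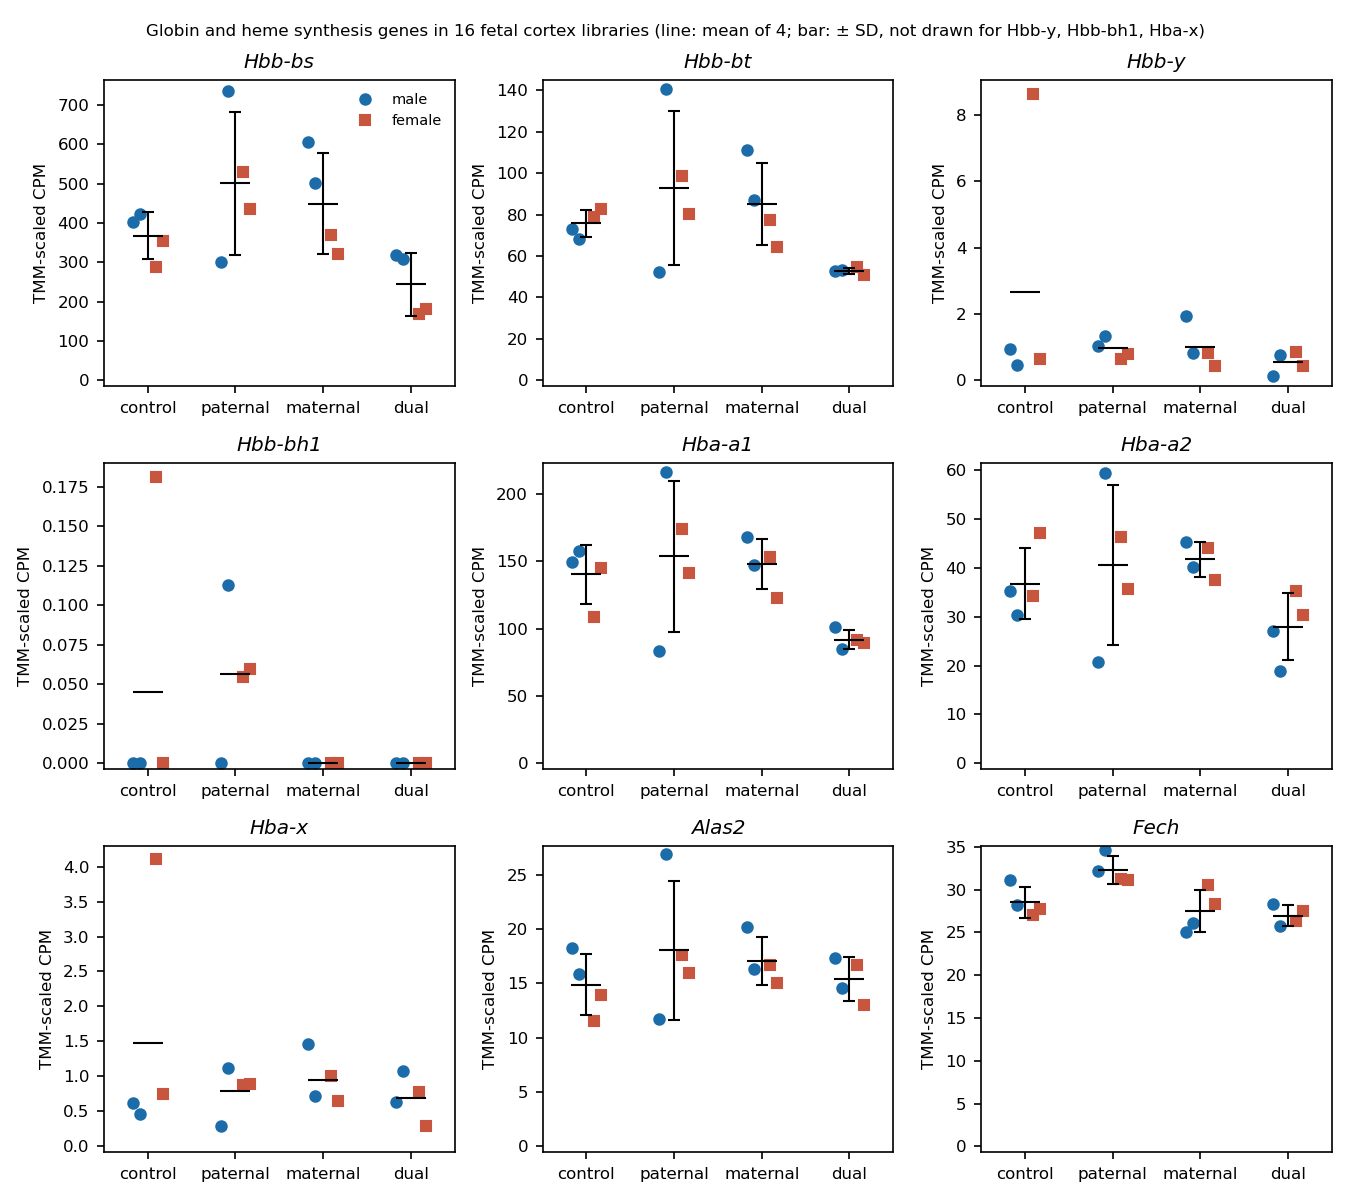
Each panel plots 1 gene in TMM-scaled CPM (y axis) in the 4 parental backgrounds (x axis), with 1 point per library, circles for male and squares for female fetuses, a line at the mean of 4 and a bar of ± 1 SD for 6 genes. The dual group has the lowest mean for Hbb-bs, Hbb-bt and Hba-a1, and female control replicate 1 stands alone for Hbb-y and Hba-x.

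Hbb-bs, the adult beta gene with more counts, had 402 and 423 CPM in the male and 289 and 355 CPM in the female controls. In dual libraries it had 319 and 308 CPM in males and 169 and 181 CPM in females. Each dual library lay below both controls of its sex, although the male dual values exceeded the lower female control. The mean was 244 ± 80.2 CPM with dual exposure and 367 ± 59.8 CPM in controls (SD, n = 4 each). The log2 fold change averaged over the sexes was -0.64 ± 0.17 (SE), and edgeR's quasi-likelihood test gave it an adjusted p of 0.0534, which misses the threshold of 0.05. Paternal libraries had 302 and 735 CPM in males and 529.8 and 436 CPM in females. Maternal libraries had 606, 500.7, 369 and 322 CPM, males first. Both exposures overlapped the controls, with log2 fold changes of 0.46 ± 0.17 (paternal, adjusted p = 0.512) and 0.26 ± 0.17 (maternal, adjusted p = 0.998).

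Hbb-bt, the adult beta gene with fewer counts, had 73.2 and 68.1 CPM in male and 78.9 and 82.8 CPM in female controls. In the dual libraries it had 52.8, 53.3, 54.5 and 50.6 CPM. All 4 dual libraries were lower than all 4 controls, at a mean of 52.8 ± 1.6 against 75.8 ± 6.46 CPM (SD, n = 4 each). Hba-a1, the adult alpha gene with more counts, had 149.5 and 158 CPM in male and 108 and 145 CPM in female controls. With dual exposure it had 101, 84.8, 91.1 and 89.5 CPM. Here too no dual library reached the lowest control. Among all 21543 genes tested, 2.13% had all 4 dual libraries below all 4 controls. The log2 fold changes were -0.52 ± 0.19 for Hbb-bt (adjusted p = 0.141) and -0.60 ± 0.19 for Hba-a1 (adjusted p = 0.0882), and neither passed edgeR's test. Hba-a2, the other alpha gene, had 35.2, 30.3, 34.3 and 47.1 CPM in controls and 27.1, 19.0, 35.4 and 30.3 CPM with dual exposure, males first. Its groups overlapped in females, and its log2 fold change of -0.41 ± 0.22 did not pass (adjusted p = 0.314).

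Across the 8 members that could be tested, dual exposure gave 7 negative and 1 positive log2 fold change, with a median of -0.56 against 0.00 over all genes. By edgeR's quasi-likelihood test 0 of the 8 passed, where 3.36% of all genes did (724 of 21543). At an unadjusted p under 0.05 there were 4, Hbb-bs, Hba-a1, Hbb-bt and Hbb-y, where 19.7% of all genes were under it, and DESeq2 called 0 members. The 724 genes were mostly higher: 0.641% of genes passed as lower with dual exposure. For paternal exposure edgeR called 0 of 8 members and 0% of all genes, with 2 members (Hbb-bs and Fech) at an unadjusted p under 0.05, and DESeq2 called 0 members and 20 genes. For maternal exposure edgeR again called 0 of 8 and 0% of genes, with 0 members at an unadjusted p under 0.05, and DESeq2 called 0 members and 2 genes. The median log2 fold change of the 8 members was 0.17 for paternal and 0.11 for maternal exposure. All 3 comparisons share the same 4 control libraries.

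**Figure D2:**
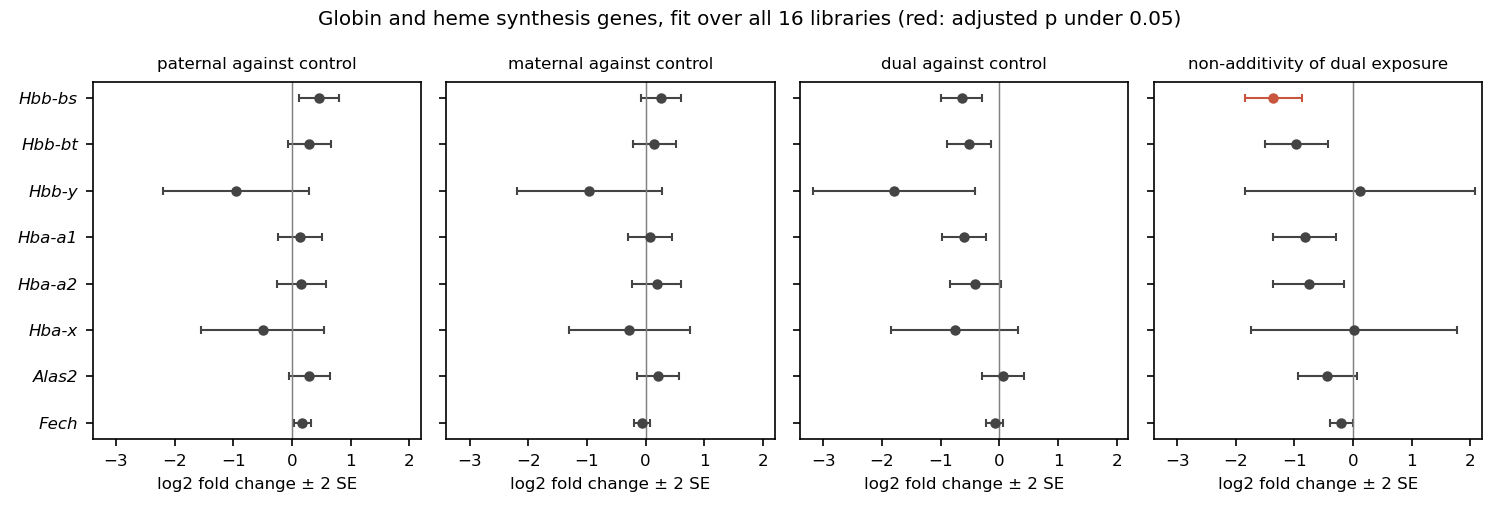
Log2 fold changes (x axis) with bars of ± 2 SE for the 8 members tested (y axis) in 4 comparisons of the fit over all libraries. For dual exposure the 4 adult globins lie between -0.64 and -0.41, and red marks the 1 estimate that passed, Hbb-bs in the test of non-additivity.

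Dual exposure was also compared with the sum of the single exposures, that is, the dual effect minus the paternal and the maternal effect. Hbb-bs was lower than that sum by a log2 difference of -1.36 ± 0.25, with an adjusted p of 0.00565 in edgeR's test, the only 1 of 8 members to pass where 4.21% of all genes did and 0.724% did as lower. DESeq2 also called Hbb-bs alone. Hbb-bt had -0.97 ± 0.27 and an adjusted p of 0.05001, just over the threshold. Hba-a1 had -0.83 ± 0.27 (adjusted p = 0.0885) and Hba-a2 -0.76 ± 0.30 (adjusted p = 0.171), with the same sign. Alas2 (-0.44 ± 0.25, adjusted p = 0.359) and Fech (-0.20 ± 0.10, adjusted p = 0.272) did not pass. The call for Hbb-bs held when any 1 library was left out, with estimates from -1.61 to -0.97. Without both female dual libraries the comparison rests on male dual fetuses, and Hbb-bs had -1.15 with an adjusted p of 0.232.

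Within females, Hbb-bs fell by 0.88 ± 0.25 on the log2 scale with dual exposure (adjusted p = 0.0239, edgeR). Hbb-y (-2.84 ± 0.83, adjusted p = 0.0287) and Hba-x (-2.16 ± 0.69, adjusted p = 0.0438) passed as well, so that 3 of 8 members did where 15% of all genes passed and 5.64% passed as lower. Both embryonic calls rest on female control replicate 1, described below: without it Hbb-y had a log2 fold change of 0.01 and only Hbb-bs was called. Without female control replicate 2 the calls were Hbb-y and Hba-x, and without either female dual library 0 members were called. DESeq2 called Hbb-y and Hba-x but not Hbb-bs. Within males, 0 of 8 members and 0% of all genes passed edgeR's test. There Hba-a1 had the lowest p, with -0.72 ± 0.27 (adjusted p = 0.942), and it was the 1 member at an unadjusted p under 0.05, while DESeq2 called 0 members. The male and female dual effects on Hbb-bs differed by 0.48 ± 0.35 (adjusted p = 0.463), so a difference between the sexes was not shown. Of the tests of a sex difference, 0 of 8 members passed for any of the 3 exposures, where 0%, 0% and 3.5% of genes did (paternal, maternal, dual). At an unadjusted p under 0.05 these held 1, 3 and 1 members, and DESeq2 called 0 members in each.

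Averaged over backgrounds, male libraries had more Hbb-bs than female ones, with a median of 413 CPM (302 to 735) against 339 CPM (169 to 529.8). The log2 difference was 0.50 ± 0.12, with an adjusted p of 0.0698 in edgeR's test. It passed without male paternal replicate 1 (0.62, adjusted p = 1.65e-05) or replicate 2 (0.30, adjusted p = 0.0301), and without female control replicate 1 (0.46, adjusted p = 0.0275) or replicate 2 (0.54, adjusted p = 0.0126). By this test 0 of 8 members passed, where 0.877% of all genes did; Hbb-bs was the 1 member at an unadjusted p under 0.05, and DESeq2 called 0. Hbb-bt differed by 0.10 ± 0.13 and Hba-a1 by 0.11 ± 0.13; neither passed. The ratio of Hbb-bs to Hbb-bt counts was 5.24 to 6.21 in the 8 male libraries. In females it was 5.38 and 5.44 with paternal, 4.76 and 5.0 with maternal exposure, 3.65 and 4.29 in controls, and 3.11 and 3.57 with dual exposure. Only the female paternal libraries reached the male range. Sex and depth cannot be told apart here, and the part of reads shared by the pair in this ratio was not tested.

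The adult alpha-to-beta ratio of counts was highest in the female dual libraries, at 0.566 and 0.518, against 0.287 to 0.441 in the other 14. The female dual log2 fold change was -0.88 ± 0.25 for Hbb-bs and -0.49 ± 0.26 for Hba-a1, the latter with an adjusted p of 0.232 in edgeR's test. In male dual libraries the ratio was 0.345 and 0.287, below both male controls (0.388 and 0.382). So were the paternal males, at 0.295 and 0.315, and the maternal males, at 0.297 and 0.318. The highest and the lowest ratio of the 16 were both in dual libraries, but male dual replicate 1 had the highest ratio of the exposed males. A ratio below the male controls was thus not particular to dual exposure. The share of TEC and sense-intronic models, given above, also set the female dual libraries apart, and its part in the ratio was not tested.

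Alas2, the erythroid starter of heme synthesis, stayed within its control range in the dual libraries. It had 18.2, 15.8, 11.6 and 13.9 CPM in controls and 17.3, 14.5, 16.7 and 13.01 CPM with dual exposure, males first. Its log2 fold change was 0.06 ± 0.18 (adjusted p = 0.883, edgeR), an interval of ± 2 SE from -0.30 to 0.42. Counts of the 4 adult globins per count of Alas2 were 28.8 and 32.0 in male and 21.0 and 27.0 in female dual libraries. In the 12 other libraries this ratio was 36.2 to 48.1, so the dual libraries lay below all of them. No test was run on this ratio, since it combines 5 members. Alas2 reached 26.9 CPM in male paternal replicate 2 and 11.7 CPM in male paternal replicate 1, the highest and the second lowest level of the 16.

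**Figure D3:**
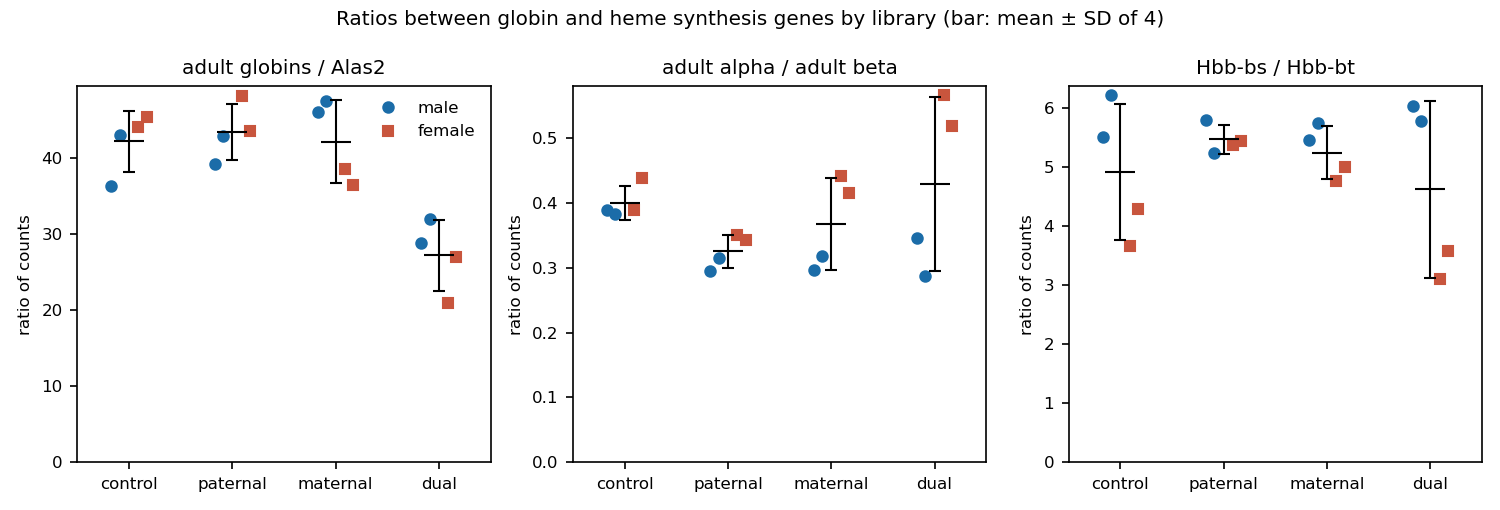
Ratios of counts (y axes) by parental background (x axes), with 1 point per library and a bar at the mean ± SD of 4. The 4 dual libraries lie lowest for adult globins over Alas2, and the female dual libraries lie highest for alpha over beta and lowest for Hbb-bs over Hbb-bt.

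Fech, the last enzyme of the pathway, had the smallest ratio of highest to lowest CPM of the 9 genes. It had 31.2, 28.2, 27.0 and 27.7 CPM in controls, 32.2, 34.6, 31.2 and 31.1 with paternal, 25, 26.1, 30.5 and 28.3 with maternal and 28.3, 25.7, 26.3 and 27.5 with dual exposure, males first. The paternal libraries were the highest group, although 1 female paternal library lay just under the highest control. The paternal log2 fold change was 0.18 ± 0.07, with an adjusted p of 0.512 in edgeR's test. For dual exposure it was -0.08 ± 0.07 (adjusted p = 0.576).

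The embryonic globins were near the limit of detection in 15 of 16 libraries. Hbb-y had 2 to 32 counts there, or 0.128 to 1.95 CPM, and Hba-x had 4 to 34 counts, or 0.285 to 1.46 CPM. Hbb-bh1 had 12 counts in all, in 4 libraries, and was not tested; in the 12 libraries at 0, a count of 0 allows a level of up to 0.0868 to 0.23 CPM. Female control replicate 1 stood apart, with 286 counts of Hbb-y (8.63 CPM), 136 of Hba-x (4.10 CPM) and 6 of Hbb-bh1. Its Hbb-y level was 4.42 times the next highest library and 10.6 times the median, and its Hba-x level 2.80 times the next. The same library had the lowest Hbb-bs (289 CPM), Hba-a1 (108 CPM) and Alas2 (11.6 CPM) of the 4 controls, whereas its Hbb-bt (78.9 CPM) and Hba-a2 (34.3 CPM) lay between the other controls.

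As a share of beta-type globin counts, Hbb-y and Hbb-bh1 made up 2.34% in female control replicate 1 (292 of 12473 counts, 95% Wilson interval 2.09% to 2.62%). The next highest was female dual replicate 1 with 0.377% (26 of 6895, 0.257% to 0.552%), and the lowest male dual replicate 1 with 0.0344% (2 of 5812, 0.00944% to 0.125%). Hba-x made up 2.80% of alpha-type counts in female control replicate 1 (136 of 4863, 2.37% to 3.30%), and at most 1.02% elsewhere, in male dual replicate 2 (14 of 1369, 0.61% to 1.71%). The medians of the 3 exposed backgrounds lay close to each other, at 0.163% to 0.198% of beta-type counts and 0.403% to 0.555% of alpha-type counts. Male control replicates 1 and 2 and female control replicate 2 had 0.200%, 0.0936% and 0.145% of beta-type counts. Their alpha-type shares were 0.334%, 0.244% and 0.391%, each below the lowest of those medians. Their Wilson intervals covered that median, at 0.195% to 0.570%, 0.124% to 0.481% and 0.267% to 0.572%. Some exposed libraries lay below it too, down to 0.285% in male paternal replicate 1 and 0.237% in female dual replicate 2. The intervals cover counting error only. Among gene counts from 1 to 20, 66.3% to 72.4% were even, so a count may not be an independent read pair. With all counts halved, the interval of the first share widens to 1.99% to 2.75%.

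**Figure D4:**
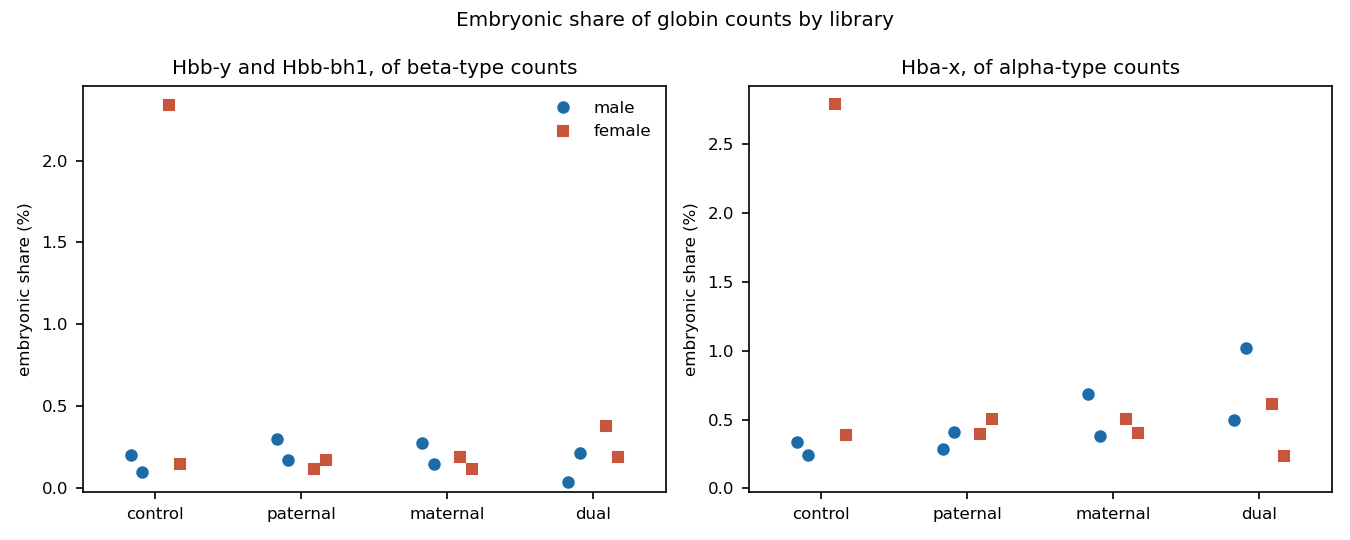
Embryonic globins as a percentage of beta-type (left) and alpha-type (right) globin counts on the y axes, by parental background on the x axes, with 1 point per library. Female control replicate 1 lies at 2.34% and 2.80%, and the other 15 libraries lie at or below 0.377% and 1.02%.

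Female control replicate 1 also had the lowest meninges markers of the 16 libraries. Its 10 meninges and fibroblast markers summed to 90.4 CPM, against 249 to 660.5 CPM in the other 15 libraries. Its 12 endothelium and pericyte markers summed to 346 CPM, near the low end but inside the 342 to 521 CPM of the others. Its 19 red cell markers summed to 349 CPM, inside the range of 292 to 352 CPM elsewhere. Their part in the embryonic globin level was not tested. This library carries the control side of the embryonic globin comparisons: for dual against control, Hbb-y had a log2 fold change of -1.79 ± 0.69 (adjusted p = 0.159, edgeR), and -0.36 without it. For paternal and maternal exposure the Hbb-y estimates were -0.96 and -0.96, and both turned positive, to 0.47 and 0.47, without that library.

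Of the 6 pairs of adult globins, 5 had an adjusted p under 0.05 for the correlation of their levels across libraries. Among these 5 are Hbb-bs with Hbb-bt and Hba-a1 with Hba-a2, whose transcripts share sequence. The part of shared reads in their r was not tested. The permutations ran over all 16 libraries without regard to sex or background. The pair that did not pass for r was Hbb-bs with Hba-a2, with r = 0.54 and rho = 0.65 (permutation p = 0.0302 and 0.00733, adjusted 0.0768 and 0.0257). Its r was 0.52 without the 2 farthest libraries, and 0.96 in males and 0.70 in females. Between Hbb-bs and Hba-a1, Pearson's r of log2 CPM was 0.86 (permutation p = 1e-05, the smallest that the permutations can give; adjusted over 28 pairs 0.00014) and Spearman's rho was 0.88 (p = 2e-05, adjusted 0.00056), over 16 libraries. Leaving out the 2 libraries farthest from the median of Hbb-bs gave r = 0.81, and within the male and the female libraries r was 0.93 and 0.96. Hbb-bt and Hba-a1 had r = 0.90 and rho = 0.83 (permutation p = 1e-05 and 0.00019, adjusted 0.00014 and 0.00133), with 0.86 without the 2 farthest libraries and 0.91 and 0.90 within the sexes. Alas2 and Hba-a1 had r = 0.72 and rho = 0.71 (permutation p = 0.00108 and 0.00296, adjusted 0.00504 and 0.0138), with 0.67 without the 2 farthest, 0.84 in males and 0.49 in females. In all, 10 of 28 pairs had an adjusted p under 0.05 for r.

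The embryonic pair Hbb-y and Hba-x had r = 0.76 and rho = 0.55 (permutation p = 0.00389 and 0.0288, adjusted 0.0156 and 0.0807). That relation rests on the extreme libraries: r was 0.57 without male dual replicate 1 and female control replicate 1, 0.94 in females and 0.39 in males. Hbb-y and Hbb-bs had r = 0.15 and rho = 0.19 (permutation p = 0.575 and 0.479, adjusted 0.671 and 0.553). Fech had no adjusted p under 0.05 with any member after TMM scaling. Without TMM factors its r was 0.60 with Hba-a1 (permutation test, adjusted p = 0.0301) and 0.63 with Hba-a2 (adjusted p = 0.0252), against 0.38 and 0.24 with them. Within females r of Fech was 0.84 with Hbb-bs and 0.83 with Hba-a1, and within males 0.13 and 0.20. Its r with Alas2 was 0.31 (rho 0.25, permutation p = 0.242 and 0.354, adjusted 0.398 and 0.495).

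For the adult globins and Alas2, the widest gap between the replicates of a group was in the paternal males. Replicate 2 had 2.44 times the Hbb-bs, 2.70 times the Hbb-bt, 2.59 times the Hba-a1, 2.86 times the Hba-a2 and 2.30 times the Alas2 of replicate 1. In the other 7 groups the replicates of these 5 genes differed by at most 1.43-fold. Fech differed by 1.08-fold between the same libraries. Without either male paternal library, edgeR's estimate of the spread of Hbb-bs (its quasi-dispersion) dropped from 5.08 to 1.04 or 1.05. The dual effect on Hbb-bs then had an adjusted p of 0.000635 or 0.000627 with a nearly unchanged estimate of -0.64, and Hbb-bt and Hba-a1 passed as well. Without female control replicate 1, Hbb-bs and Hba-a1 passed, and without female control replicate 2, Hbb-y. Replicate 1 of the paternal males also had 14.2% of its counts on IDs without a symbol, against 5.49% in replicate 2, and the part of that share in the gap was not tested.

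Genes whose level followed the adult globins were sought among 15780 other genes, by Pearson's r of log2 CPM with the summed adult globin CPM over the 16 libraries. The nearest was Slc4a1, the band 3 anion exchanger of the red cell membrane, with r = 0.93 (0.94 in male and 0.91 in female libraries). Next came Tgoln1, a protein of the trans-Golgi network (0.87), Tent5c, a poly(A) polymerase (0.87), Il1r1, the interleukin 1 receptor (0.85), Tubb6, a beta-tubulin (0.84), and Slc25a37, mitoferrin 1, which carries iron into mitochondria for heme synthesis (0.83). Erg, an endothelial transcription factor (0.83), Sft2d2 (0.82), Kbtbd11 (0.82) and Tln1, talin (0.80), complete the 10 nearest. These are descriptions over shared libraries, with no test. Slc4a1 had 7.18, 5.93, 6.27 and 5.56 CPM in controls and 5.76, 4.59, 3.45 and 3.71 CPM with dual exposure, males first. Its dual log2 fold change of -0.53 ± 0.24 was near those of the adult globins but did not pass (adjusted p = 0.227). In paternal males Slc4a1 had 4.02 and 10.6 CPM and Slc25a37 12.2 and 34.0 CPM, the same order of replicates as the globins. Both genes stand here because they were ranked by likeness to the globins over these same libraries. Their dual and paternal values follow in part from that choice and are not separate evidence.

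**Figure D5:**
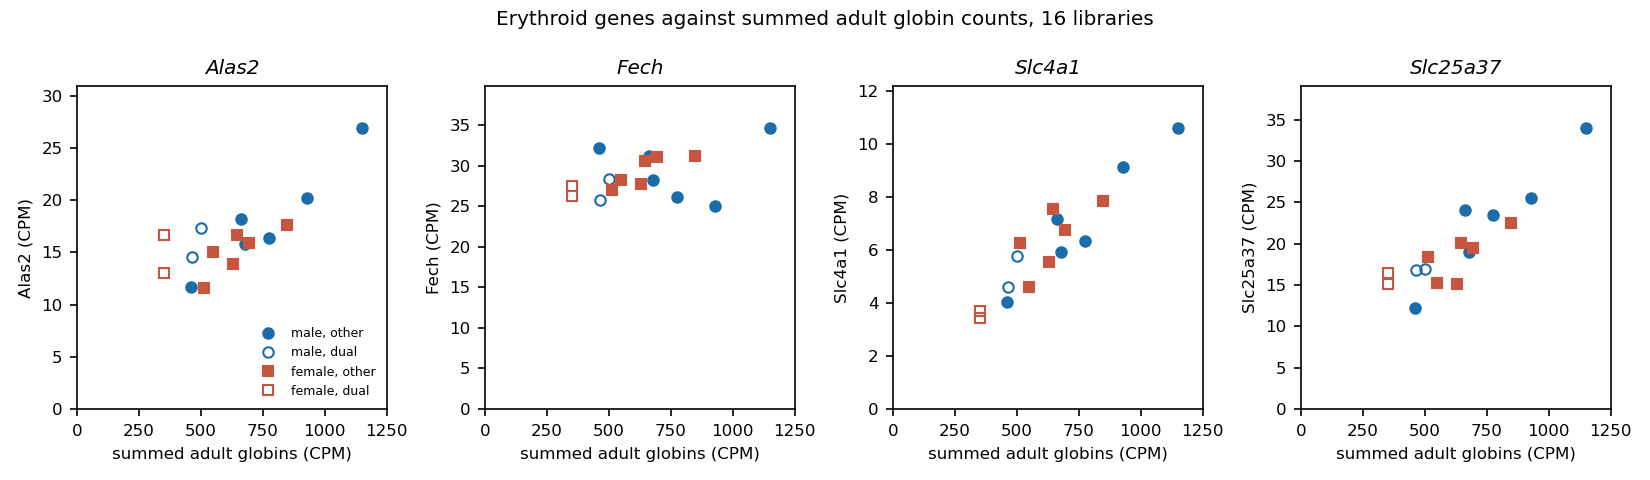
CPM of Alas2, Fech, Slc4a1 and Slc25a37 (y axes) against the summed CPM of the 4 adult globins (x axes) in 16 libraries, with circles for male, squares for female and open symbols for dual libraries. Slc4a1 is higher where the globins are higher (r = 0.93), Fech stays between 25 and 34.6 CPM, and the dual libraries lie at 350.1 to 499.9 CPM of adult globins with Alas2 levels inside the range of the others.

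Of 20 red cell markers listed, 19 were matched and 14 tested, and 0 passed edgeR's test for paternal, maternal or dual exposure. Their dual log2 fold changes were negative in 10 of 14, with a median of -0.16 against 0.00 over all genes. Summed over the list they had 303 to 352 CPM in controls, 300.1 to 346 with paternal, 318 to 335 with maternal and 292 to 316 with dual exposure. Most of this sum was Mkrn1, an E3 ubiquitin ligase with 153 to 199 CPM, and other members that nervous tissue also expresses, such as Bpgm and the ankyrin Ank1. Strictly erythroid markers were low: the band 3 partner Epb42 had 0 to 22 counts, and Car1 had 0 counts in all libraries. Of the erythroid transcription factors, Gata1 had 0 to 3 counts and Klf1 0 to 13 counts per library, and Gfi1b had 0. None of the 3 factors tested (Tal1, Nfe2 and Zfpm1) passed in the 3 comparisons.

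The 7 other heme synthesis enzymes, which all cells use, had overlapping levels in the paternal, maternal and control libraries. They summed to 106 to 121 CPM in controls, 115 to 117 with paternal, 108 to 115 with maternal and 103 to 108 with dual exposure, and 0 of 7 passed edgeR's test in these comparisons. Alas1, the housekeeping counterpart of Alas2, had a dual log2 fold change of -0.09 ± 0.08 (adjusted p = 0.574, edgeR). Of 21 heme and iron handling genes, Ftl1, the ferritin light chain, fell with dual exposure by 0.25 ± 0.06 (adjusted p = 0.0289), and the other 20 did not pass. That is 1 of 21, where 3.36% of all genes passed and 0.641% passed as lower. In the test of non-additivity, Fth1, the ferritin heavy chain (-0.32 ± 0.08, adjusted p = 0.028), and Slc40a1, the iron exporter ferroportin (-0.53 ± 0.13, adjusted p = 0.0305), were lower than the sum of the single effects. These were 2 of 21, where 4.21% of all genes passed and 0.724% passed as lower. Of the other globins only Cygb (cytoglobin) and Ngb (neuroglobin) could be tested, and Cygb fell within dual females by 0.56 ± 0.15 (adjusted p = 0.0155). In that comparison 15% of all genes passed and 5.64% passed as lower.

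Markers of vessels were measured beside the globins. All 12 endothelium and pericyte markers had negative dual log2 fold changes, with a median of -0.26 against 0.00 over all genes. Pecam1, the adhesion molecule CD31, fell by 0.40 ± 0.09 (adjusted p = 0.027) and Tie1, an endothelial receptor kinase, by 0.50 ± 0.12 (adjusted p = 0.0323), and the other 10 did not pass. Among all genes, 3.36% passed for dual exposure and 0.641% passed as lower. In the test of non-additivity Pecam1, Cdh5, Esam and Tek passed, from -0.77 to -0.65, where 4.21% of all genes passed and 0.724% as lower. The summed level of the list was 346 to 520 CPM in controls, 479 to 517 with paternal, 471 to 521 with maternal and 342 to 439 with dual exposure, with no defining marker at 0. Of 10 microglia markers, which belong to the brain's resident macrophages, all 10 were negative with dual exposure and 0 passed. Platelet and white blood cell markers were sparse, at 2.53 to 6.94 and 1.41 to 6.37 CPM per list, and 0 of 3 and 0 of 4 tested passed in the 3 comparisons. In paternal males, replicate 2 had 0.891 times the Pecam1 and 2.44 times the Hbb-bs of replicate 1. Erg, which is not on this list and was ranked by likeness to the globins, had 1.31 times the level. Other vessel markers were not compared between these replicates. Slc25a37 stands in both the red cell and the iron list. Markers of tissue next to the cortex varied widely: 5 choroid plexus markers summed to 5.38 to 175 CPM and 3 thalamus markers to 30.3 to 94.5 CPM, while 8 radial glia markers summed to 950.3 to 1316 CPM. For paternal, maternal and dual exposure 0 genes of these 3 lists, of the meninges list and of the cortical neuron list passed edgeR's test. In the test of non-additivity, where Hbb-bs passed, 3 of 10 meninges and fibroblast markers also passed as lower than the sum of the single effects. They were the transcription factor Foxc1 (-0.93 ± 0.23, adjusted p = 0.0271) and the matrix proteins Ogn (-1.19 ± 0.32, adjusted p = 0.0417) and Dcn (-1.35 ± 0.37, adjusted p = 0.046). Of all genes, 4.21% passed this test and 0.724% passed as lower. For dual against control, 4 of the 10 markers were positive and 6 negative, with a median of -0.09. Within dual females 1 of the 10 passed as higher, where 15% of all genes passed. The summed level of the meninges list was 90.4 to 529 CPM in controls, 458 to 623 with paternal, 396 to 660.5 with maternal and 249 to 408 with dual exposure. The 90.4 CPM was female control replicate 1, and its part in these calls was not tested. The part of tissue, vessel or blood content in the globin values was not tested.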

How the data were processed

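Total RNA of fetal cortex was sequenced, and the authors deposited read counts per gene ID for each of the 16 libraries. Trimmomatic, STAR, featureCounts and the build GRCm39 (mm39) are named per the submitters' processing notes; their versions, the strandedness used and the handling of reads with several matches are not given in the sources used. The 9 members, the pathway lists and the marker lists were chosen with earlier results of these data known.

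From the deposited counts, edgeR 4.0.16 with limma 3.58.1 (R 4.3.3) was fitted to all genes: filterByExpr (minimum count 10, total 15, about 0.434 CPM) kept 21543 of 55359 IDs, with TMM scaling, 1 mean for each of 8 groups of sex and exposure, quasi-likelihood tests on 8 residual degrees of freedom and Benjamini-Hochberg adjustment over all genes tested, with a threshold of 0.05. The comparisons were each exposure against control (averaged over the sexes), male against female, the sex difference of each effect, the non-additivity of dual exposure, and dual exposure within each sex. DESeq2 1.42.0, its size factors in edgeR, no filter, an additive model, a replicate block and leaving out each library were alternatives; leaving out both female dual libraries, and the alternatives within 1 sex, were chosen after seeing the data. Scripts were tested on simulated data.

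CPM are TMM-scaled, and correlations and likeness used log2 CPM with a prior count of 2. Levels per kilobase used 1 principal transcript per gene. Binomial intervals are 95% Wilson intervals, and floors are 3 counts. All 9 members were named, with the 10 genes of highest likeness (genes with a symbol whose log2 CPM averaged 0 or more), and, from each list, the genes that passed or had the smallest p. Other genes named for their level (Mkrn1, Bpgm, Ank1, Epb42, Alas1) were chosen after their values were seen. Gene IDs without a symbol (3276 of 55359) stayed in library sizes and tests. Promoter sequences came from RefSeq's table for GRCm38.p6, which differs from the build of the counts, and were used for sequence only; 7 of 9 members are shown. Some list genes are not reported here.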

Additional observations from a re-analysis of the deposited data

Results flagged for a closer look

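In female control replicate 1, Hbb-y stood at 8.63 CPM, far from the other controls (0.46 to 0.952 CPM) and from the other female libraries (0.428 to 0.846 CPM). Hba-x stood at 4.10 CPM in the same library, against 0.46 to 0.753 CPM in the other controls and 0.285 to 1.0 CPM in the other females. The 3 embryonic globins together stood at 12.9 CPM there, against 0.921 to 1.57 CPM in the other controls and 0.713 to 1.82 CPM in the other females. As a share of all globin counts they made up 2.47% in that library, against 0.135% to 0.237% in the other controls and 0.187% to 0.463% in the other females. These values share 1 library and its counts, so they are not independent of each other.

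The adult alpha-to-beta ratio of counts was 0.438 in female control replicate 2 and 0.382 to 0.388 in the other 3 controls. In all, 9 of 78 groups of values examined held a library this far from the others, and chance gives about 1 in 20. The groups overlap, because the control and the female libraries share samples.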

How the results depend on the processing

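Of 1657 log2 fold changes of members recomputed under an alternative, 1525 kept their direction and their side of the threshold, 56 came to pass, 16 no longer passed and 60 changed sign without passing on either side. Without the filter on low counts, edgeR no longer used a gene's own spread and replaced it by a value drawn from other genes. The quasi-dispersion of Hbb-bs fell from 5.083 to 0.4865, so calls in this setting leave out its own spread between replicates. The members called there were 2 (paternal), 1 (maternal), 5 (dual) and 2 (male against female). For the sex differences of the paternal, maternal and dual effects they were 1, 3 and 2. For non-additivity, male dual and female dual they were 4, 4 and 5. Leaving out 1 library at a time gave 0 to 1 members for paternal, 0 to 0 for maternal and 0 to 3 for dual exposure, 0 to 1 for male against female, 0 to 1, 0 to 2 and 0 to 2 for the sex differences, 1 to 4 for non-additivity, 0 to 0 for male dual and 0 to 5 for female dual. Male paternal replicates 1 and 2 and female control replicates 1 and 2 gave the dual changes, as stated with the results; the paternal call, of Hbb-bs, came without male paternal replicate 1, and the calls among sex differences, of Hbb-y and Hba-x, without female control replicate 2. Without both female dual libraries 0 members were called for non-additivity.

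Of all genes, edgeR called 0 (paternal), 0 (maternal), 724 (dual), 189 (male against female), 0, 0 and 753 (sex differences), 907 (non-additivity), 0 (male dual) and 3229 (female dual). In the same order DESeq2 called 20, 2, 946, 332, 41, 1, 1027, 1006, 1 and 3033, and no filter gave 321, 79, 1345, 603, 334, 278, 1542, 1808, 71 and 3636. Leaving out 1 library gave 0 to 672, 0 to 115, 142 to 2056, 109 to 1003, 0 to 1052, 0 to 612, 18 to 2854, 368 to 2169, 0 to 13 and 1187 to 4032. The additive model called 183 genes for dual exposure, and without both female dual libraries 0 were called for dual exposure and 0 for non-additivity.

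With the replicate number as a block, the members called were the same in number in every comparison, and Hbb-bs kept its non-additivity (-1.36, adjusted p = 0.00601). The block gave 0, 0, 727, 186, 0, 0, 775, 933, 0 and 3244 genes. Deviations of same-numbered libraries correlated at -0.143 to 0.183, so the numbers were not taken to pair the libraries. Under the block the non-additivity of Hbb-y was -0.081 and of Hba-x -0.11, on the other side of 0.

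Signs also changed without both female dual libraries, for the dual effect on Hba-x (0.63) and Alas2 (-0.092) and the non-additivity of Hbb-y (-2.44) and Hba-x (-0.81), and without the filter for Fech between the sexes (-0.0057). Leaving out 1 library moved estimates across 0 as follows. For paternal exposure the ranges were Alas2 -0.077 to 0.53, Hba-a1 -0.29 to 0.40, Hba-a2 -0.33 to 0.43, Hba-x -1.16 to 0.34, Hbb-bt -0.15 to 0.56 and Hbb-y -1.41 to 0.47. For maternal exposure they were Hba-a1 -0.017 to 0.20, Hba-x -0.66 to 0.56 and Hbb-y -1.40 to 0.47, and for dual exposure Alas2 -0.036 to 0.15 and Hba-x -1.22 to 0.076. Between the sexes they were Fech -0.015 to 0.022, Hba-a1 -0.10 to 0.24, Hba-x -0.67 to 0.083, Hbb-bt -0.12 to 0.24 and Hbb-y -0.78 to 0.36. For the sex difference of the paternal effect they were Alas2 -0.94 to 0.26, Fech -0.085 to 0.068, Hba-a1 -1.19 to 0.18, Hba-a2 -0.67 to 0.85, Hbb-bs -1.04 to 0.25 and Hbb-bt -0.58 to 0.85, for that of the maternal effect Hba-a1 -0.31 to 0.11, and for that of the dual effect Hba-a2 -0.47 to 0.062 and Hbb-y -0.74 to 3.0. For non-additivity they were Hba-x -0.82 to 0.67 and Hbb-y -1.30 to 0.56, for male dual Alas2 -0.23 to 0.026 and Hbb-y -2.45 to 0.088, and for female dual Hbb-y -3.75 to 0.0065. The causes were not tested. Where a group is left with 1 library, that library is assumed to vary like the others. Of 56 correlations recomputed with another prior count or without TMM, 53 kept their side of the threshold and 3 came to pass, all without TMM: Hbb-bs with Hba-a2 (r = 0.59), and Fech with Hba-a1 and with Hba-a2. Depth limits the embryonic globins, at 2 to 32 counts of Hbb-y and 4 to 34 of Hba-x in 15 libraries.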
